A study of Mus musculus with 8 samples.

Results

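Respiratory complex I, NADH:ubiquinone oxidoreductase, was examined through the transcripts of its nuclear subunits in pressure-loaded mouse hearts. The genes were chosen by name: every gene whose symbol began with Nduf, a letter a, b, c, s or v and a digit, from probe sets that carry a single symbol. The rule found 33 of the 22180 genes on the array, and all 33 passed the filter on low signals that left 15086 genes for testing. It took in 31 subunits of the complex and a pair of genes that bear the name without belonging to it, Ndufa4 and Ndufa4l2.

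Complex I is the entry point of the respiratory chain in the inner mitochondrial membrane. Its matrix arm oxidises NADH in the NADH (N) module and passes the electrons along iron-sulfur clusters to ubiquinone in the quinone (Q) module, and its membrane arm pumps protons. A conserved core carries out the catalysis, and many accessory subunits build and stabilise the assembly. Its genes are split between the nucleus and mitochondrial DNA, and heart muscle, which depends on oxidative ATP production, is among the tissues richest in the complex.

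The samples were 8 Affymetrix arrays of heart RNA from male C57Bl6N mice, with values given as log2 intensities. Transverse aortic constriction (TAC), a surgical narrowing that makes the left ventricle pump against a raised pressure, had been performed on every mouse 1 week before harvest. In 4 samples CITED4, a transcriptional co-regulator, was knocked out (C4KO_TAC), and 4 samples came from floxed control animals (F/FCtr_TAC), whose Cited4 gene carries recombination sites. The labels used here do not say what drives Cre or if the floxed controls had it, and no unoperated heart was part of the design. The labels do not say how animals were allotted to arrays. The p-values therefore reflect only the variation among these 8 arrays, part of which may be technical, and the number of arrays limits the precision.

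Promoters were read for 29 of the 33 members from RefSeq (GRCm38.p6), as windows of 250 bases before to 50 bases after the start of transcription; Ndufs1, Ndufa2, Ndufb9 and Ndufa4l2 were not matched. They are shown because the members' signals varied together and because factors known for respiratory genes have short recognition sequences. The first 3 stretches, each the 100 bases before the start, belong to Ndufb3 and Ndufb10, which had the most negative differences among members with a window, and to Ndufa12, whose groups did not overlap. They were chr1:58586297-58586396 on the plus strand, chr17:24724424-24724523 on the minus strand and chr10:94198935-94199034 on the plus strand. No searched motif fell within them.
Ndufb3: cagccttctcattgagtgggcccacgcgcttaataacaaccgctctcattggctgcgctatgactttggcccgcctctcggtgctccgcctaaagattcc
Ndufb10: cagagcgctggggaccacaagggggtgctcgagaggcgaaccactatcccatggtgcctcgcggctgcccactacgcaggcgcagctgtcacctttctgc
Ndufa12: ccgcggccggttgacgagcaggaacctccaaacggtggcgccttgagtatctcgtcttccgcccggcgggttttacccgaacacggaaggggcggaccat

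The next 4 held a match, shown in capitals. They were Ndufa6 (chr15:82354292-82354391, minus strand) and Ndufa11 (chr17:56717662-56717761, plus strand) with the NRF-1 letters, and Ndufs3 (chr2:90904722-90904821, minus strand) and Ndufb7 (chr8:83566658-83566757, plus strand) with the GABP letters. In Ndufa11 the NRF-1 letters on both strands overlap.
Ndufa6: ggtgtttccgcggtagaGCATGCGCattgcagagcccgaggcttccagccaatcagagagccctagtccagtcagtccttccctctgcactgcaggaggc
Ndufa11: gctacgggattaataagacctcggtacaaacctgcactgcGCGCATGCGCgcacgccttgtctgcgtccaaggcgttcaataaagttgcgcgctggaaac
Ndufs3: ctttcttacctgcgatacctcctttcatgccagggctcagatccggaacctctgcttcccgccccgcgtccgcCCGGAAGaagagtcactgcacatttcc
Ndufb7: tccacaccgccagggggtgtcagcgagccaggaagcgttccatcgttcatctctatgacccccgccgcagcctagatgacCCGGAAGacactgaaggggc

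The targeted gene Cited4 had log2 signals of 5.89, 5.76, 6.05 and 6.22 in the control hearts and of 5.26, 5.15, 4.83 and 5.02 in the knockout hearts. Every knockout heart was below every control heart, with a difference of -0.91 ± 0.12 (log2, SE; exact two-sided permutation p = 0.0286, the smallest that 4 against 4 arrays allow). Limma gave Cited4 an unadjusted p of 2.19e-05 and an adjusted p of 0.277, so the targeted gene itself did not pass an adjusted p of 0.05. Array medians lay between 4.29 and 4.33. Of 12 cardiomyocyte markers, 8 had means above the 99th percentile of the tested genes (10.73).

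Complex I transcripts were on average lower in the knockout hearts, by small amounts, and knockout replicates 1 and 4 carried most of the difference. The signal was lower for 31 of 33 genes (93.9%, against 48.8% of all genes tested), with a median difference of -0.18 (log2) against 0.00 over all genes. The members ranged from -0.39 for Ndufb3 to 0.11 for Ndufs5. No member passed the test: limma called 0 of 33 at an adjusted p of 0.05, and 0 of the 15086 genes (0%), with adjusted p-values of the members from 0.421 to 0.857. At an unadjusted p under 0.05, 11 of 33 members were lower (33.3%, against 5.61% of all genes) and 0 were higher. The groups did not overlap in 3 of 33 (9.09%, against 2.90% of all genes lower without overlap). Genes of a complex vary together across hearts, so 33 genes are not 33 separate observations.

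**Figure D1:**
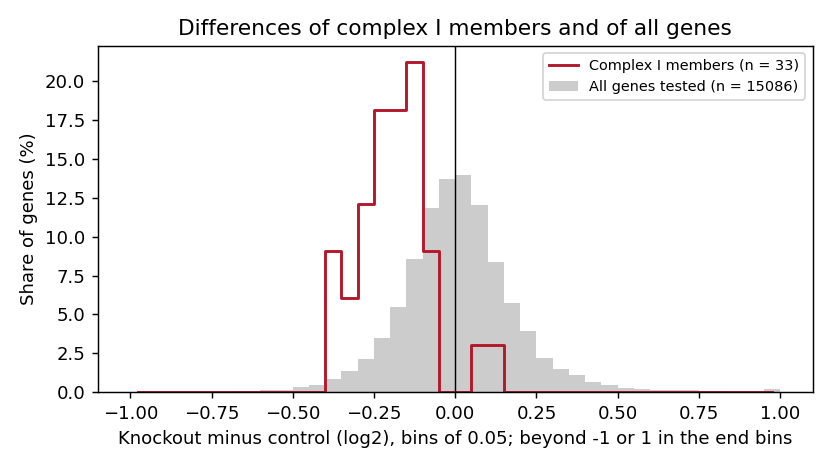
Share of genes (y axis, %) by knockout minus control difference (x axis, log2) for the 33 complex I members (red line) and all 15086 genes tested (grey bars). The members' median is -0.18 and that of all genes 0.00, with 31 of 33 members to the left of 0.

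Single arrays moved these counts. The number of members at an unadjusted p under 0.05 was 3 without knockout replicate 1, 4 without knockout replicate 4, 4 without control replicate 2, 4 without control replicate 3 and 5 without control replicate 4. The share of all genes in these settings was 3.17%, 3.39%, 3.49%, 3.75% and 3.83%. The number of members rose to 16 without knockout replicate 2 (8.80% of all genes lower), 15 without control replicate 1 (6.16%) and 13 without knockout replicate 3 (6.66%). The number without overlap was 15 without control replicate 1 (6.72% of all genes) and 12 without knockout replicate 2 (7.92% of all genes), where 3 hearts are set against 4. Knockout replicates 1 and 4 had the lowest signals for most members, so leaving both out had to shrink the difference. That setting is a description and no test. With knockout replicates 1 and 4 left out together, 23 of 33 members were lower (48.7% of all genes), with a median of -0.04. In that setting 0 members had an unadjusted p under 0.05 (limma; 1.90% of all genes lower), and 3 of 33 were without overlap (6.17% of all genes).

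Heart by heart, the knockout hearts were unequal. In knockout replicate 1, 29 of 33 members lay below the lowest control heart, and in knockout replicate 4 it was 28. In knockout replicate 3 the number was 12 and in knockout replicate 2 it was 4. The median deviation from the control mean was -0.34, -0.02, -0.05 and -0.37 (log2) in knockout replicates 1 to 4, and -0.09, 0.02, 0.03 and 0.04 in control replicates 1 to 4. Knockout replicates 1 and 4 were both below replicates 2 and 3 in 31 of 33 members, and 30 members had their lowest signal of all 8 hearts in replicate 1 or 4. Knockout replicates 2 and 3 thus lay close to the controls for most members. The SD over hearts had a median of 0.09 in the controls and 0.20 in the knockouts, and it was wider in the knockouts for 29 of 33 members.

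**Figure D2:**
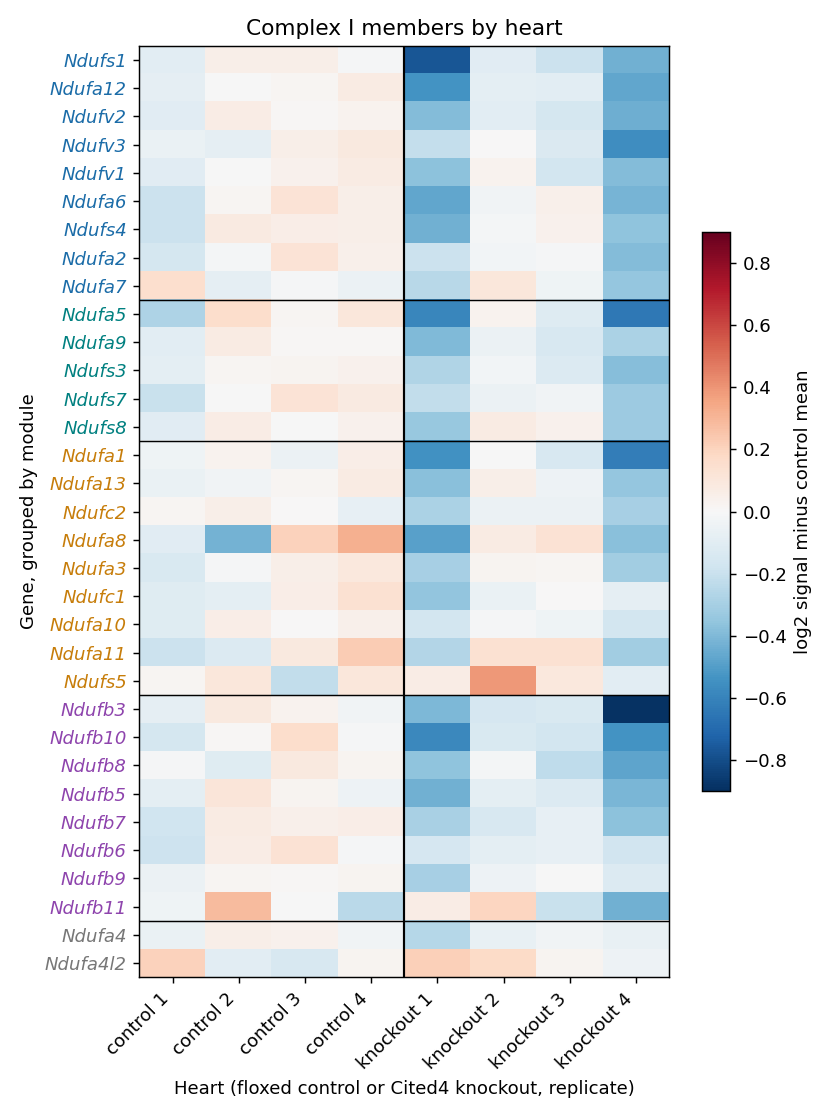
Log2 signal minus the control mean (colour) for the 33 complex I members (rows, grouped by module) in the 8 hearts (columns). Knockout replicates 1 and 4 are blue in nearly every row, with 29 and 28 members below the lowest control heart, and replicates 2 and 3 are pale.

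The members varied together from heart to heart. After the group means were removed, the median Pearson correlation over the 528 pairs of members was 0.73 across 8 arrays, and it was 0.81 with the group means left in. All genes of a heart share its RNA and its array, so these correlations describe the arrays and carry no test. Ndufa3, a small membrane-arm subunit, followed the others most closely, with a median correlation of 0.88 with the rest within groups. Ndufa4l2 stood apart at -0.15, and Ndufb11, one of the weakest signals, was at 0.31.

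The N module holds the flavin that takes electrons from NADH and the first iron-sulfur clusters. All 9 members measured had lower mean signals in the knockout hearts (48.8% of all genes), with a median of -0.22. Of them 3 had an unadjusted p under 0.05 (5.61% of all genes lower) and 2 were without overlap (2.90%). Ndufs1, the core subunit that carries several of the clusters, had signals of 10.06, 10.21, 10.21 and 10.14 in the control hearts and 9.39, 10.05, 9.96 and 9.72 in the knockout hearts. Knockout replicate 1 was lowest by far, and the groups were separated by only 0.008 between control replicate 1 and knockout replicate 2. The difference was -0.37 ± 0.13 (SE; limma adjusted p = 0.421, exact permutation p = 0.0286), which left 77.2% of the control signal. Without knockout replicate 1 the difference of Ndufs1 was -0.24.

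Ndufa12, an accessory subunit related to the assembly factor Ndufaf2, was at 9.13, 9.21, 9.23 and 9.29 in controls and at 8.68, 9.13, 9.13 and 8.75 in knockouts. Replicates 1 and 4 were well below the controls, whereas replicates 2 and 3 lay just under the lowest control heart, at a gap of 0.003. The difference was -0.30 ± 0.11. The probe set of Ndufa12 that was not used, because its mean is lower, gave -0.11.

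Ndufv2, a core subunit with an iron-sulfur cluster close to the flavin, had values of 10.19, 10.36, 10.30 and 10.33 in control hearts and 9.90, 10.20, 10.13 and 9.86 in knockout hearts. The groups touched, with knockout replicate 2 just above control replicate 1, and the difference was -0.27 ± 0.09. Ndufv1, the core subunit that binds the flavin and NADH, was at 9.45, 9.55, 9.59 and 9.62 against 9.19, 9.58, 9.39 and 9.16 in the knockout. Replicate 2 lay within the control range, and the difference was -0.22 ± 0.10. Among the other accessory subunits of the module, Ndufv3 differed by -0.22 ± 0.12 (-0.11 without knockout replicate 4), Ndufa6 by -0.22 ± 0.13 (-0.14 without knockout replicate 1), Ndufs4 by -0.19 ± 0.12, Ndufa2 by -0.15 ± 0.10 and Ndufa7 by -0.14 ± 0.11. Loss of Ndufs4 in mice is a widely used model of Leigh-like complex I deficiency. Each of these had overlapping groups.

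The Q module joins the matrix arm to the membrane and holds the site where ubiquinone is reduced. Its 5 measured members were all lower on average (median -0.20), as were 48.8% of all genes. An unadjusted p under 0.05 was found for 2 (5.61% of all genes lower), and 0 were without overlap (2.90%). Ndufa5, an accessory subunit, was at 8.56, 9.00, 8.86 and 8.94 in controls and at 8.25, 8.87, 8.72 and 8.19 in knockouts. Control replicate 1 was the lowest control and lay below knockout replicates 2 and 3, and the difference was -0.33 ± 0.16. Ndufa9, which sits at the junction of the arms, was at 10.22, 10.38, 10.32 and 10.32 against 9.91, 10.25, 10.17 and 10.03, a difference of -0.22 ± 0.09.

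Ndufs3, a core subunit around which the Q module is built, had control signals of 6.51, 6.62, 6.62 and 6.64 and knockout signals of 6.33, 6.57, 6.47 and 6.22. Only knockout replicate 2 reached into the control range, and the difference was -0.20 ± 0.09. Ndufs7 and Ndufs8, core subunits that carry the last clusters before ubiquinone, differed by -0.16 ± 0.10 and -0.14 ± 0.11. For Ndufs8 the knockout signals were 9.69, 10.11, 10.07 and 9.70 against 9.93, 10.10, 10.03 and 10.07 in controls, so knockout replicate 2 was the highest heart of all and replicate 1 the lowest. Ndufs7 ran from 10.90 to 11.22 in controls and from 10.77 to 11.07 in knockouts. Over the 6 core subunits measured, 6 were lower, with a median of -0.21.

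The proximal membrane arm adjoins the Q module. Of its 9 measured members 8 had lower mean signals (48.8% of all genes) and 1 a higher one, with a median of -0.14. An unadjusted p under 0.05 was found for 1 (5.61% of all genes lower), and 0 were without overlap (2.90%). Ndufa1, a short X-linked subunit with a single membrane helix, was at 9.87, 9.94, 9.86 and 9.97 in control hearts and at 9.36, 9.91, 9.77 and 9.29 in knockout hearts. The controls were tight, replicates 1 and 4 were far below them and replicate 2 lay among them, and the difference was -0.33 ± 0.13. Ndufa13, also known as GRIM-19, differed by -0.18 ± 0.11, Ndufc2 by -0.17 ± 0.08, Ndufa3 by -0.14 ± 0.10, Ndufc1 by -0.12 ± 0.10 and Ndufa10 by -0.09 ± 0.08.

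Ndufa8 and Ndufa11 varied widely among the hearts of each genotype. Ndufa8 was at 10.35, 10.03, 10.66 and 10.77 in controls and 9.96, 10.53, 10.58 and 10.08 in knockouts, with a difference of -0.17 ± 0.19. Its other probe set, not used, gave 0.12. Ndufa11 was at 10.49, 10.56, 10.77 and 10.91 against 10.42, 10.82, 10.82 and 10.37 (difference -0.08 ± 0.14), and its other probe set gave 0.06. The intervals of both genes include 0, and their direction depended on the probe set.

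Ndufs5, a subunit on the intermembrane side, was the only complex I subunit with a higher mean in the knockout by the probe set used, at a weak signal. Its values were 4.34, 4.43, 4.11 and 4.43 in controls and 4.39, 4.71, 4.42 and 4.23 in knockouts, with a difference of 0.11 ± 0.12 and overlapping groups. Of all members it had the lowest mean signal, 4.38, close to the filter at 3.80. Another probe set, not used because the platform lists it under Ndufs5 and its pseudogene together, gave -0.12. Its signal was much stronger, with means of 8.22 in controls and 8.10 in knockouts. It is among 6 probe sets that the rule left out for carrying several symbols, which include those of Ndufs6, Ndufb4 and Ndufb2. All 6 were lower, from -0.32 to -0.12.

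The distal membrane arm also holds mitochondrially encoded subunits, and its members under the name rule are all of the Ndufb series. Among the modules as the name rule fills them it had the lowest median, -0.24. Its 8 members were all lower on average (48.8% of all genes). Of them 5 had an unadjusted p under 0.05 (5.61% of all genes lower) and 1 was without overlap (2.90%). Whether the modules differ from each other was not tested. Ndufb3, a membrane subunit whose loss impairs assembly of the complex, was at 6.78, 6.95, 6.89 and 6.83 in control hearts and at 6.45, 6.71, 6.72 and 5.97 in knockout hearts. Each knockout heart was below each control heart, and replicate 4 was far below the rest. The difference was -0.39 ± 0.15 (limma adjusted p = 0.421, exact permutation p = 0.0286), which left 76.1% of the control signal. Without knockout replicate 4 the difference of Ndufb3 was -0.23.

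Ndufb10, a subunit with disulfide bonds on the intermembrane side, was at 8.67, 8.85, 8.99 and 8.82 in controls and at 8.25, 8.70, 8.67 and 8.29 in knockouts. Knockout replicates 2 and 3 lay at about the level of control replicate 1, and the difference was -0.36 ± 0.12, with the smallest p of the members (0.0148, limma, unadjusted; adjusted 0.421). Ndufb8, often used on blots as a sign of assembled complex I, was at 7.53, 7.43, 7.63 and 7.56 against 7.18, 7.52, 7.31 and 7.06, a difference of -0.27 ± 0.10. Knockout replicate 2 was within the control range and the other knockout hearts were below it.

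Ndufb5 was at 8.85, 9.05, 8.96 and 8.90 in controls and 8.51, 8.86, 8.82 and 8.53 in knockouts, a difference of -0.26 ± 0.10. Ndufb7 ran from 8.02 to 8.28 in controls and from 7.83 to 8.13 in knockouts (difference -0.22 ± 0.09), and control replicate 1 was its lowest control. Both are accessory subunits of the membrane arm, and both showed overlap through that single control heart. Ndufb6 differed by -0.12 ± 0.08 and Ndufb9 by -0.12 ± 0.08. Ndufb11, encoded on the X chromosome, differed by -0.09 ± 0.15 at a mean control signal of 4.79, and its sign was not stable when single hearts were left out.

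With knockout replicates 1 and 4 left out, the medians of the modules lay closer to 0. Of all genes tested, 48.7% were lower in that setting. The distal arm was lower in 8 of 8 members (median -0.11) and the N module in 6 of 9 (median -0.06). The Q module was lower in 4 of 5 (median -0.04) and the proximal arm in 4 of 9 (median 0.00). Ndufb3 was at -0.14, Ndufs1 at -0.15, Ndufb10 at -0.15 and Ndufv2 at -0.13 in that setting, whereas Ndufa11 was at 0.14 and Ndufa8 at 0.10. These values rest on 2 knockout hearts. The hearts left out were the lowest for most members, so smaller differences follow from the choice.

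**Figure D3:**
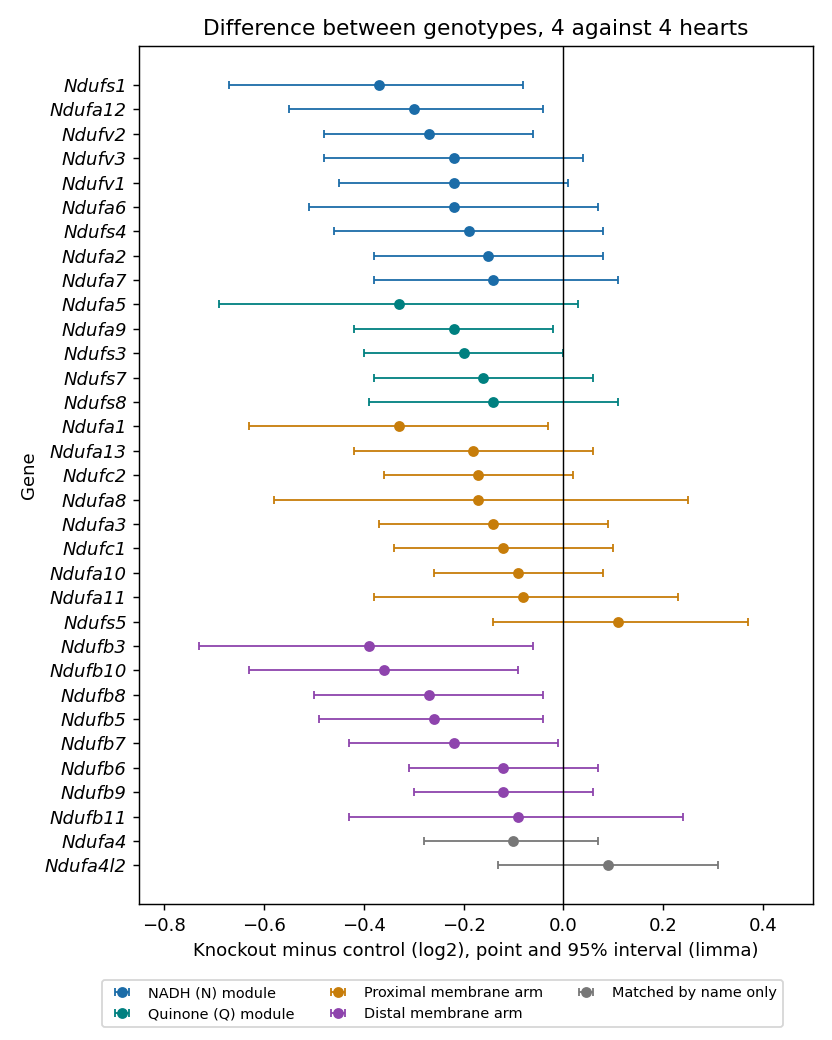
Knockout minus control difference (x axis, log2) of each of the 33 members (rows, coloured by module) with limma's 95% interval, 4 hearts per group. The points lie left of 0 except for Ndufs5 (0.11) and Ndufa4l2 (0.09), and the intervals of 11 members stay below 0 before adjustment.

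The pair that shares the name only lay within the range of the subunits. Ndufa4, now assigned to cytochrome c oxidase, was at 11.60, 11.70, 11.69 and 11.62 in controls and at 11.40, 11.59, 11.62 and 11.59 in knockouts, a difference of -0.10 ± 0.08. Only knockout replicate 1 was well below the rest. Ndufa4l2, its hypoxia-inducible paralogue, was at 6.62, 6.32, 6.27 and 6.44 against 6.63, 6.58, 6.44 and 6.37, a difference of 0.09 ± 0.10. The groups overlapped in both genes.

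Complex I subunits outside the name rule were lower as well. Ndufab1, the mitochondrial acyl carrier protein that is also a subunit of the complex, was at 7.43, 7.55, 7.70 and 7.62 in controls and 7.04, 7.60, 7.49 and 6.92 in knockouts. The difference was -0.31 ± 0.15. It was -0.20 without knockout replicate 4 and -0.03 without knockout replicates 1 and 4. All 7 subunits encoded in mitochondrial DNA (ND1 to ND6 and ND4L) had lower mean signals (48.8% of all genes), with a median of -0.11. An unadjusted p under 0.05 was found for 0 of them (5.61% of all genes lower). ND2 differed by -0.14 ± 0.07, ND6 by -0.19 ± 0.12 and ND5 by -0.06 ± 0.07. A further quantile normalization brought ND5 to 0.01 and left ND6 at -0.18. It also made the others smaller: ND1 went from -0.12 to -0.06, ND2 to -0.09 and ND3 from -0.09 to -0.05. ND4 went from -0.09 to -0.06 and ND4L from -0.11 to -0.04. Of these 7 genes 6 had means above the 99th percentile of the tested genes, as did 5 of the 33 members. With knockout replicates 1 and 4 left out, all 7 were still lower on average (48.7% of all genes), with a median of -0.05.

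Assembly factors, which build the complex and are not part of it, were lower for 15 of 18 genes (median -0.12; 48.8% of all genes). Of them 4 had an unadjusted p under 0.05 (5.61% of all genes lower) and 2 were without overlap (2.90%). Ecsit and Ndufaf1, which act in the assembly of the membrane arm, differed by -0.27 ± 0.09 and -0.25 ± 0.09. Their partners Tmem126b and Acad9, named after their values were seen, were the 2 without overlap, at -0.20 ± 0.07 and -0.12 ± 0.07. Tmem126b was at 7.33, 7.33, 7.38 and 7.32 in control hearts and at 7.07, 7.19, 7.25 and 7.07 in knockout hearts. The remaining factor at an unadjusted p under 0.05, Ndufaf4, also named after the fact, differed by -0.37 ± 0.16. The adjusted p-values of these 5 factors ran from 0.421 to 0.531 (limma).

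The other respiratory complexes gave similar numbers, and a difference between them and complex I was not tested. Of 37 measured subunits of complexes II to V, 34 were lower (48.8% of all genes), with a median of -0.18. Among them 9 had an unadjusted p under 0.05 (5.61% of all genes lower) and 2 were without overlap (2.90%). The medians were -0.18 for complex II (4 genes), -0.16 for complex III (8), -0.23 for complex IV (10) and -0.14 for complex V (15). Uqcrb and Cyc1 of complex III differed by -0.22 ± 0.10 and -0.19 ± 0.10, and Sdha and Sdhc of complex II by -0.23 ± 0.10 and -0.24 ± 0.12. Cox7a1 and Cox7b of complex IV differed by -0.41 ± 0.14 and -0.30 ± 0.10, and Atp5k and Atp5g3 of the ATP synthase by -0.27 ± 0.08 and -0.23 ± 0.09. Outer membrane genes had a median of -0.07 (7 of 9 lower), with 0 at an unadjusted p under 0.05. Among them Samm50 differed by -0.23 ± 0.13 and Vdac3 by -0.15 ± 0.09. With knockout replicates 1 and 4 left out, 29 of the 37 subunits of complexes II to V were lower (median -0.04). In that setting 48.7% of all genes were lower. Those replicates were also the lowest hearts for this list, so the smaller median follows from the choice.

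Regulators of mitochondrial gene expression were lower in 11 of 12 cases (48.8% of all genes), with a median of -0.18. Of them 5 had an unadjusted p under 0.05 (5.61% of all genes lower). Ppargc1a encodes PGC-1 alpha, a co-activator that drives mitochondrial biogenesis. It was at 9.55, 10.14, 10.18 and 10.25 in controls and at 8.98, 9.85, 9.62 and 9.21 in knockouts. Replicates 1 and 4 were again the lowest, and control replicate 1 lay among the knockout hearts. The difference was -0.61 ± 0.21 (limma adjusted p = 0.421, exact permutation p = 0.0857). Perm1, a muscle partner of PGC-1 and ERR, differed by -0.52 ± 0.21. Its signals were 7.80, 8.78, 8.70 and 7.96 in knockouts and 8.73 to 9.05 in controls. Ppara differed by -0.38 ± 0.14, Ppargc1b by -0.30 ± 0.11 and Tfam, which maintains and transcribes mitochondrial DNA, by -0.27 ± 0.10. Without knockout replicates 1 and 4, the lowest hearts for this list, 11 of 12 regulators were lower (48.7% of all genes). Their median was then -0.11, with Ppargc1a at -0.29 and Perm1 at -0.09. The nuclear receptors Esrra, Esrrb and Esrrg differed by -0.05 ± 0.11, -0.16 ± 0.10 and -0.07 ± 0.13. For Esrra the knockout hearts split the other way. Knockout replicates 1 and 4 (6.89 and 6.92) were above all controls (6.69 to 6.85), and replicates 2 and 3 (6.54 and 6.51) were below them. For the factors that bind promoters of respiratory genes the values were -0.13 ± 0.08 for Nrf1, -0.19 ± 0.09 for Gabpa, 0.08 ± 0.11 for its partner Gabpb1 and -0.02 ± 0.07 for Yy1.

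Markers of cell types also varied from heart to heart. A score, the mean deviation of a list's genes from their own means over the 8 arrays, was 0.00, 0.11, 0.13 and 0.13 for complex I in control replicates 1 to 4 and -0.23, 0.09, 0.03 and -0.27 in knockout replicates 1 to 4. For the 12 cardiomyocyte markers it was 0.05, 0.08, 0.06 and 0.11 in controls and -0.29, 0.15, 0.03 and -0.19 in knockouts, so the same 2 knockout hearts were lowest in both lists. For the 12 fibroblast markers it was 0.31, -0.44, -0.56 and -0.28 in controls and 0.58, 0.14, -0.24 and 0.47 in knockouts, and knockout replicates 1 and 4 were highest. Control replicate 1 had the highest fibroblast score and the lowest complex I score of the controls.

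By counts, 9 of 12 cardiomyocyte markers were lower (median -0.15) and 11 of 12 fibroblast markers higher (median 0.50). Over the 15086 genes tested, 7365 were lower and 7721 higher. The mean level of the cardiomyocyte list ran from 11.29 to 11.34 in controls and from 10.95 to 11.39 in knockouts, and that of the fibroblast list from 8.50 to 9.37 and from 8.82 to 9.64. Macrophage markers were higher in 10 of 11 cases (median 0.13; scores -0.24 to 0.11 in controls and -0.09 to 0.25 in knockouts). Endothelial markers were lower in 6 of 9 (median -0.02; -0.03 to 0.12 and -0.22 to 0.19) and smooth muscle and pericyte markers in 5 of 8 (median -0.08; -0.29 to 0.19 and -0.23 to 0.32). Of 5 atrial markers 4 were higher, with a score of 2.06 in knockout replicate 2 and from -0.49 to 0.13 in the other hearts. The part of these markers in the complex I values was not tested. In whole-heart RNA, fewer cardiomyocytes and less complex I RNA in each of them cannot be told apart.

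**Figure D4:**
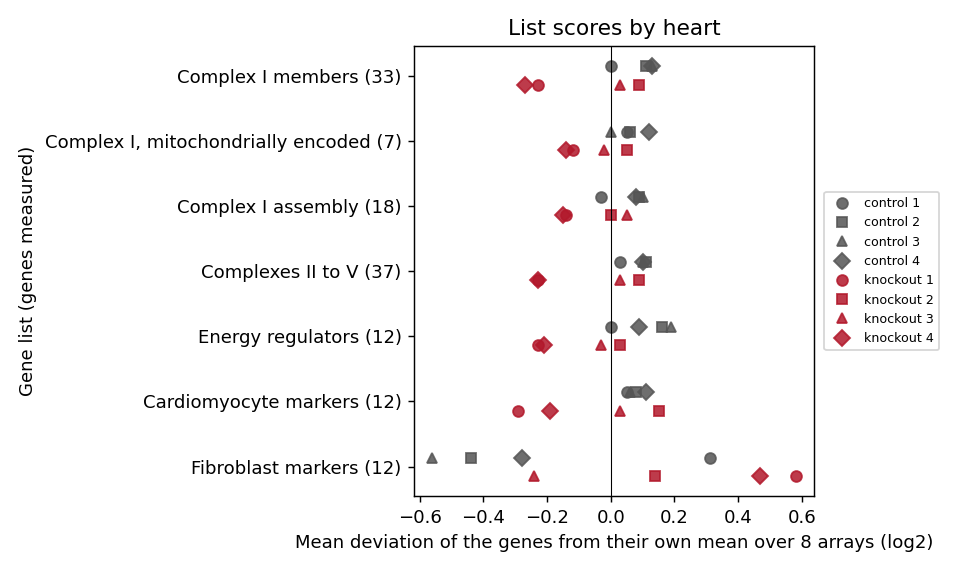
Scores of 7 gene lists (rows) in each heart (x axis, mean deviation in log2; grey for control, red for knockout, a symbol per replicate). Knockout replicates 1 and 4 are the lowest hearts for complex I (-0.23 and -0.27), the other mitochondrial lists and the cardiomyocyte markers, and the highest for the fibroblast markers.

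For the promoter motifs, both strands of the whole windows were searched, and the same search was run on the promoters of 17492 protein-coding genes. The NRF-1 letters GCGCATGC were in 3 of 29 members (10.3%; Ndufa6, Ndufa8 and Ndufa11) and in 3.94% of all promoters. The GABP letters CCGGAAG were in 4 (13.8%; Ndufb6, Ndufb7, Ndufs3 and Ndufs8) and in 12.9% of all. The YY1 letters AAGATGG were in 6 (20.7%; Ndufa3, Ndufa9, Ndufb8, Ndufc1, Ndufs4 and Ndufs7) and in 7.18% of all; in these 6 the match lay after or across the start of transcription, and its letters include ATG. The ERR letters TCAAGGTCA were in 0 of 29 members and 0.377% of all, and the shorter AAGGTCA, which they contain, was in 1 (3.45%; Ndufs5) and 4.73% of all. A match describes letters in a window and is no evidence of binding, and members with a match had differences from -0.27 (Ndufb8) to 0.11 (Ndufs5).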

How the data were processed

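RNA from whole hearts was hybridised to Affymetrix arrays, per the labels' protocols. The deposited values, which the authors made, are log2 intensities of 41345 probe sets on 8 arrays; RMA and limma are named without versions or roles, per the submitters' processing notes. Sources used here name no genome build or batches. RMA includes quantile normalization, which removes any shift common to all genes, and the highest signals can be compressed.

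Genes were named from 23521 probe sets with 1 symbol (1814 had several and 16010 none), of which 23328 took the RefSeq symbol by Entrez identifier. The probe set with the highest mean stood for a gene, and genes with a mean at or above the 40th percentile of probe sets (3.80) were tested. Knockout minus control was fitted over all 15086 genes with limma 3.58.1 in R 4.3.3 (lmFit, eBayes) with Benjamini-Hochberg adjustment over all of them, and SE is that of limma. Single values had an exact two-sided permutation test over 70 assignments. The fit was checked on simulated data in which genes varied independently and the changes were larger than those of the members. That check does not cover genes that vary together or differences this small. Groups came from the genotype in the sample titles.

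The members, lists, naming rule and alternatives were chosen with earlier results of these data known, so nothing here is independent of them. Values are given for the core subunits, Ndufa4 and Ndufa4l2, members without overlap, the 5 lowest and 5 highest differences, the 2 genes with the smallest p of each other list, all energy regulators and Cited4; further members are given to complete their modules. Alternatives were other filters, normalizations, probe set rules, variance models, array weights, a replicate block, another threshold and left-out arrays.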

Additional observations from a re-analysis of the deposited data

Results flagged for a closer look

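Among 186 comparisons of a heart with the other 3 of its group (single genes and list means), 17 had a heart whose gap to the nearest other, divided by the range of the group, exceeded Dixon's 95% critical value for 4 samples. Chance alone would mark about 1 in 20, and the genes vary together. Control replicate 1 was the lowest control heart in 12 of them. These were Ndufs4 (gap share 0.914; 8.84 against 9.09 to 9.11), Ndufb9 (0.885; 12.10 against 12.17 to 12.18), Ndufb7 (0.874; 8.02 against 8.25 to 8.28) and Ndufs3 (0.848; 6.51 against 6.62 to 6.64). They included Cox7a1 (0.986), Sdhc (0.858), Sdha (0.845) and Ppargc1a (0.842; 9.55 against 10.14 to 10.25). The list means were those of the core subunits (0.950), complexes II to V (0.949), the assembly factors (0.875) and the Q module (0.867).

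Control replicate 3 stood apart for Yy1 (0.881, highest), Tmem126b (0.862, highest) and ND5 (0.8292, lowest). Knockout replicate 1 was apart for Ndufa4 (0.854; 11.40 against 11.59 to 11.62), and knockout replicate 2 for the atrial markers (0.909; mean level 9.04 against 6.54 to 6.77).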

How the results depend on the processing

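The count of members at an adjusted p of 0.05 was 0 under every alternative run, an adjusted p of 0.1 included. The count lower (29 to 31) and the median (-0.25 to -0.13) kept their direction when each heart was left out. Without overlap there were 1 member after quantile normalization (2.64% of all genes), 6 with a common median (3.38%) and 3 to 15 without single hearts (3.61% to 7.92%). Unadjusted p-values under 0.05 numbered 3 to 16 without single hearts (3.17% to 8.80% of all genes lower). They numbered 0 without knockout replicates 1 and 4 together (1.90%). Whether replicate numbers pair the hearts is not known. After the group means were removed, same-numbered hearts correlated at 0.36, 0.01, 0.28 and -0.03, and so few hearts cannot decide the question. With a replicate block 11 members had an unadjusted p under 0.05 (6.46% of all genes lower). None passed, and the lowest adjusted p of a member was 0.173 (limma), against 0.421 without the block. ND5 was 0.01 after quantile normalization, and ND1, ND2, ND3, ND4 and ND4L had smaller negative differences there. Without knockout replicates 1 and 4 the sign turned for Ndufa6 (0.00), Ndufs4 (0.01), Ndufa13 (0.00), Ndufa8 (0.10), Ndufa3 (0.02), Ndufs8 (0.05), Ndufa7 (0.03) and Ndufa11 (0.14). The cause was not tested, and only 2 knockout hearts remain there. Those left out were the lowest for most members, so a shift upward follows from the choice. Leaving out single hearts also turned a sign: Ndufb11 ran from -0.19 to 0.02, Ndufa11 from -0.15 to 0.00, Esrra from -0.12 to 0.02, Esrrg from -0.15 to 0.02 and Yy1 from -0.06 to 0.02.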
